A study of Mus musculus with 4 samples.

Results

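The comparison of whole eyes taken 24 h after light exposure with eyes that had no light was followed across genes. Of the 22558 genes listed in the deposited table, 14074 had a mean of at least 1 FPKM over the 4 samples after 120 small RNA genes were set aside, and these genes were compared. FPKM is the number of mapped fragments scaled to transcript length and library size. All mice were 6 weeks old and carried the genotype Abca4-/-Rdh8-/-, the control included, so each difference below is a difference within that genotype. The groups were a control without light, and mice 3 h, 24 h and 7 days after light, whose strength and duration the sources used here do not give. Each sample is labelled as eyes of 3 mice and has 1 deposited value per gene, and the sources used here do not say if it is a pool or a mean of 3 libraries. There is therefore no replicate check and no test for any difference, and a gene was called higher or lower when log2(FPKM + 1) at 24 h minus control was at least 1 or at most -1. On that scale a gene with low values shows less than its true change, so folds in the text are ratios of the FPKM values themselves. Where 4 FPKM values follow each other, they are for the control, 3 h, 24 h and 7 days, in that order.

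Photoreceptors turn light into an electrical signal, and the bleaching by light releases all-trans-retinal. Abca4 moves this aldehyde out of the disc membrane and Rdh8 reduces it, so in mice without both the aldehyde lingers and bright light injures photoreceptors. When photoreceptors are stressed, Müller glia, the radial support cells of the retina, release cytokines such as leukaemia inhibitory factor. These act through the shared receptor subunit gp130 on JAK kinases and the transcription factor STAT3, and STAT3 in turn induces its own inhibitor Socs3 and the intermediate filament gene Gfap.

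Abca4 was at 56.3, 40.6, 34.3 and 37.4 FPKM and Rdh8 at 10.5, 14.2, 11.9 and 11.02 FPKM. The values are not split by exon and every sample carries both deletions, so they check no label. The tissue label says whole eye while the extraction protocol speaks of retinas, and lens RNA was present at 24.3% of all FPKM in the control and 24.8% at 24 h. Defining markers of rods (Gnat1, 2679 to 1581 FPKM), Müller glia (Glul, 769 to 395 FPKM), lens (Cryaa, 25471 to 26738 FPKM), cornea (Krt12, 1680.2 to 2029 FPKM) and skeletal muscle (Ckm, 239 to 170.0 FPKM) were present in both samples (a pair joined by "to" gives the control and 24 h). Best1 of the pigment epithelium stayed under 1 FPKM in both, although Rpe65 was at 123 to 80.8 FPKM. No gene of the lymphocyte list reached a mean of 1 FPKM. Depth was estimated by taking the median FPKM of olfactory receptor genes above 0 in 1 sample alone as 1 fragment. This used 16 genes in the control and 17 at 24 h, was not checked, and would not hold for a mean of libraries. On that assumption, a gene of that length at 1 FPKM rested on about 22.3 fragments in the control and 28.6 at 24 h. The relative error from counting alone would be 21.2% and 18.7%. For such a gene at 5 FPKM that error would be 9.46% and 8.36%.

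Most transcripts were close to their control level at 24 h. The median log2 change over all 14074 genes was 0.01, 73.2% of genes lay within 0.2 of 0 and 94.8% within 0.5. Of these genes, 65 were called higher (0.462%) and 32 lower (0.227%). The scatter of the control against 24 h shows the called genes on both sides of the diagonal, from genes under 1 FPKM in the control up to Pdc.

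**Figure D1:**
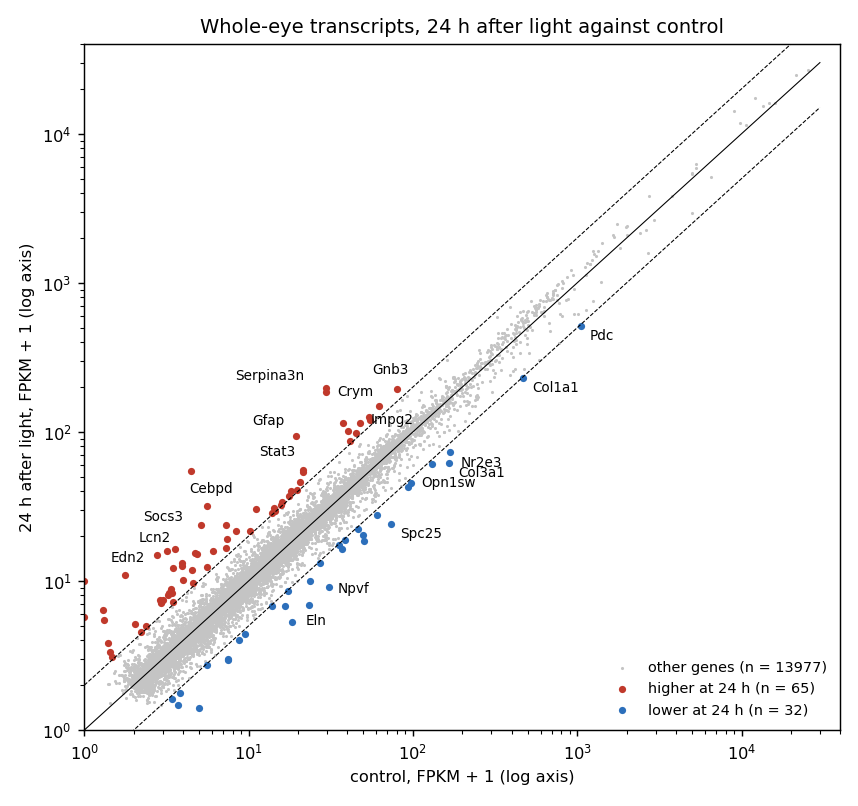
Each point is 1 of 14074 genes, with FPKM + 1 in the control on the x axis and at 24 h on the y axis, both log axes. The solid line marks equal values and the dashed lines a log2 difference of 1 and -1. Red points are the 65 genes called higher and blue points the 32 called lower.

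The largest increase among named genes with a mean of at least 5 FPKM, apart from a histone gene described at the end, was that of Serpina3n, a serine protease inhibitor of reactive glia. It was at 28.5, 25.4, 197 and 33.6 FPKM, so the 24 h sample stood alone and the other 3 lay close together. Crym, which encodes the thyroid hormone binding protein mu-crystallin, was at 28.8, 20.9, 184 and 54.0 FPKM. Its 24 h value was again the highest, with 7 days next. Lcn2, an iron-binding acute-phase lipocalin, was at 1.76, 4.55, 14.0 and 2.86 FPKM. The folds over the control were 6.91, 6.40 and 7.93. The largest decreases were those of Npvf, a neuropeptide gene, at 29.8, 10.2, 8.06 and 26.9 FPKM, and of Eln, which encodes elastin, at 22.4, 6.96, 5.89 and 9.94 FPKM. Both were already low at 3 h, and Npvf was near its control level again at 7 days. In whole-eye RNA, fewer cells of a type and less RNA per cell cannot be told apart.

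For most called genes the 24 h sample was also the extreme of all 4 samples. The call itself favours this, because it selects genes whose 24 h value lies far from the control. The share of all genes that were highest or lowest at 24 h was not counted, here or for the lists below. Of the 65 higher genes, 57 had their highest value at 24 h, and in 26 the 24 h value exceeded each of the other 3 samples by at least 1 log2 unit. Over all genes that last count was 26 at 24 h (0.185%), against 2 in the control (0.0142%), 9 at 3 h (0.0639%) and 4 at 7 days (0.0284%). Serpina3n, Crym, Gfap, Socs3, Stat3, Osmr and Impg2 were among the 26. In Cebpd and Atf3 the 3 h value had already left the control, at 26.3 and 7.70 FPKM. Tnfrsf12a, the receptor of the cytokine TWEAK, was as high at 3 h as at 24 h (7.41, 20.7, 20.7 and 9.80 FPKM), and Angptl7 was higher at 3 h (60.9, 284, 149 and 119 FPKM). Of the 32 lower genes, 28 had their lowest value at 24 h, but only Spc25 and Snx31 were below each other sample by at least 1 log2 unit (0.0142% of all genes). Over all genes, that count was 3 in the control (0.0213%), 3 at 3 h (0.0213%) and 1 at 7 days (0.00711%). Spc25, a subunit of the kinetochore, was at 72.4, 61.9, 23.3 and 74.4 FPKM, and Snx31, a sorting nexin, was at 2.71, 2.93, 0.485 and 3.57 FPKM. In 26 of the 32 lower genes the control was the highest of the 4 samples, and in 42 of the 65 higher genes it was the lowest. The call favours these counts too. The plot of the called genes shows that more higher than lower genes stood at least 1 log2 unit beyond every other sample.

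**Figure D2:**
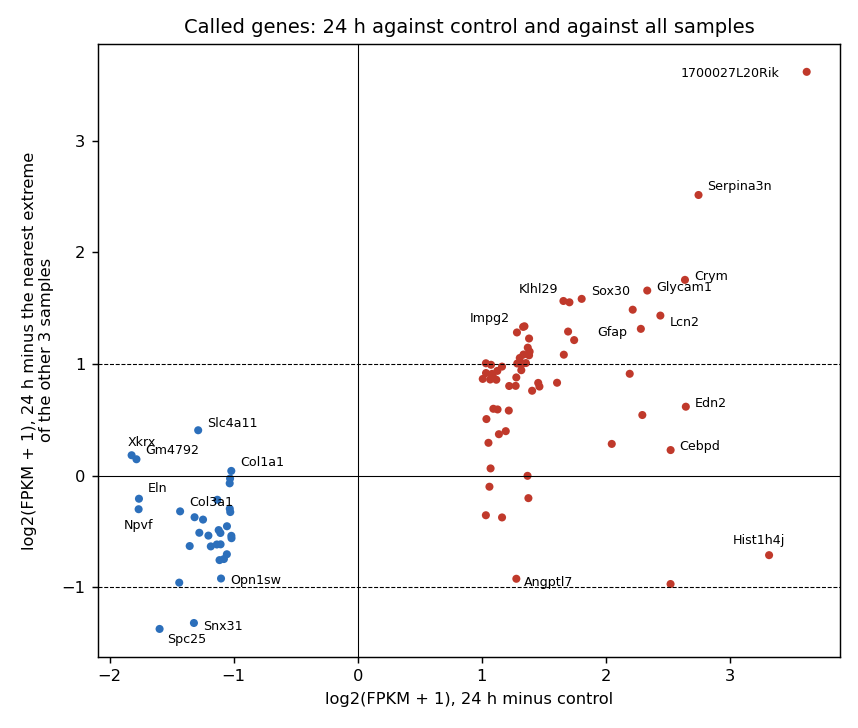
Each point is 1 of the 97 called genes, with the log2(FPKM + 1) difference from the control on the x axis and the difference from the highest (red, higher genes) or lowest (blue, lower genes) of the other 3 samples on the y axis. Red points above the upper dashed line are the 26 genes at least 1 log2 unit above every other sample, and only Spc25 and Snx31 lie below the lower dashed line.

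The cytokines that signal through gp130 were low in all samples, and none was called. Lif was at 0.409, 2.84, 1.05 and 0.393 FPKM, with its highest value at 3 h. Clcf1, a cardiotrophin-like cytokine, was at 0.903, 1.96, 2.39 and 2.04 FPKM and Cntf, ciliary neurotrophic factor, at 12.8, 10.98, 18.3 and 13.5 FPKM. Cntf had its highest value at 24 h, and Clcf1 was above the control in all 3 light samples. Il6, Osm and Il11 stayed under 0.5 FPKM in every sample. The median log2 change of the 5 ligands kept was 0.49, and it was 0.06 without the filter on low values and with a minimum of 5 FPKM.

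Among the receptors, Osmr, the oncostatin M receptor, was the 1 called gene of 6. It was at 6.33, 8.69, 22.7 and 8.21 FPKM, 3.59-fold higher at 24 h than in the control. Il6st, which encodes gp130, was at 34.7, 31.5, 47.9 and 35.0 FPKM, again highest at 24 h but not called. Lifr (14.6, 21.4, 17.6 and 13.02 FPKM) and Cntfr (9.36, 13.8, 10.3 and 12.2 FPKM), the receptor chains for Lif and Cntf, had their highest values at 3 h. In the list, 5 of 6 genes lay above 0, with a median of 0.26.

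Downstream of the receptors, 3 of 10 JAK and STAT genes were called, all higher. Stat3 was at 20.4, 23.3, 54.2 and 23.9 FPKM. The 3 other samples lay within a narrow range and the 24 h value was more than 2-fold above the control. Jak3, a kinase used mainly by receptors of immune cells, went from 2.23 to 7.04 FPKM. Stat2 was at 8.38, 7.86, 15 and 7.53 FPKM, a log2 change of 0.77. Irf9, which forms a transcription complex with Stat2, was called at 13.6, 15.1, 28.3 and 14.1 FPKM. Jak1, Tyk2, Jak2 and the Stat5 and Stat6 genes were near their control level, with Jak1 at 25.3 to 24.0, Tyk2 at 5.13 to 4.95, Jak2 at 12.6 to 14.1, Stat5a at 2.94 to 2.89, Stat5b at 16.6 to 14.1 and Stat6 at 13.3 to 11.9 FPKM from the control to 24 h. The list's median was 0.07, and it was -0.03 when genes of more than 1 list were left out.

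Of 18 feedback inhibitors and known STAT3 targets, 5 were called higher and none lower, and 14 lay above 0 (median 0.36). Socs3, the main inhibitor of gp130 signalling, was at 4.13, 7.503, 22.8 and 5.12 FPKM. Cebpd, a transcription factor of the acute-phase response, was at 4.58, 26.3, 31.0 and 9.27 FPKM. Socs3 thus had its largest step between 3 h and 24 h and Cebpd before 3 h. Timp1, an inhibitor of matrix metalloproteinases, was at 2.96, 3.23, 11.52 and 4.91 FPKM. Junb, an AP-1 subunit, was at 36.6, 63.3, 113 and 43.7 FPKM, and Bcl3, an NF-kappaB cofactor, at 1.94, 1.49, 6.13 and 2.87 FPKM. For all 5 the 24 h value was the highest of the 4. Other members differed less, among them Cish (3.15 to 6.78 FPKM), Socs2 (5.05 to 6.88 FPKM), Socs1 (4.79 to 5.62 FPKM), Mcl1 (42.8 to 54.8 FPKM) and Pim1 (18.4 to 15.7 FPKM). Pias3, which encodes an inhibitor of STAT3, was lower at 24 h (22.9, 21.4, 15.6 and 18.3 FPKM) without passing the threshold.

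**Figure D3:**
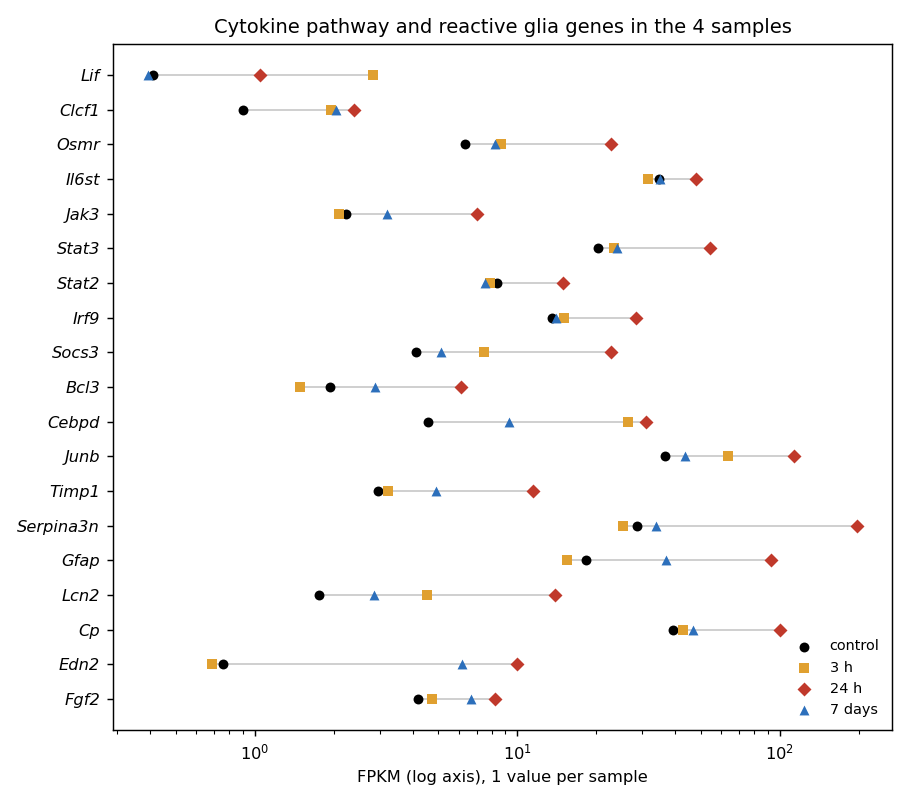
FPKM on a log axis for 19 genes of the cytokine pathway and of reactive glia, with 1 point for each of the 4 samples. The 24 h points (red diamonds) of Stat3, Socs3, Serpina3n, Gfap and Osmr stand to the right of the other samples, while that of Lif lies to the left of its 3 h point.

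STAT factors bind palindromic sites of the form TTCNNNGAA, so promoter windows of 250 bases before the gene start were searched on both strands, using RefSeq sequences of build GRCm38.p6. The deposited values used the mm9 build, and no coordinates of that build are given. Of the 65 higher genes, 50 had a window and 3 of these held the motif (6%), Socs3, Glycam1 and Dbp. Among all 27025 genes with a window the share was 8.13%, and among the 9949 of these kept in the comparison it was 7.00%. The stricter form TTCCNGGAA, which is contained in the first, was found in 0 of the 50 windows. Its share was 1.09% of all windows and 1.21% of those of kept genes. A match is a description of the letters only. The stretches around the matches of Socs3 and Glycam1 are shown because both genes were more than 5-fold higher, with the motif in capitals. The Socs3 stretch lies on the minus strand at chr11:117969492-117969540, and that of Glycam1 on the minus strand at chr15:103565198-103565246, both upstream of the gene start.
Socs3: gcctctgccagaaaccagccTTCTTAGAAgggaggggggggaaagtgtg
Glycam1: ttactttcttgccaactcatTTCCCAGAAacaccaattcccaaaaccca

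The motif TTGCNNAA, a site form of C/EBP factors such as Cebpd, was found in 6 of the 50 windows of higher genes (12%). Its share was 10.8% of all windows and 8.85% of those of kept genes. In the reactive glia list it was found in 5 of 20 windows (25%), those of Lcn2 and Cp among them. In the gp130 and STAT3 lists it was found in 1 of 33 windows (3.03%). The AP-1 site form TGANTCA was found in 3 of the 50 windows (6%) and in 7.82% of all.

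Genes of reactive glia and of the acute phase lay above their control level almost throughout. Of 26 genes kept, 24 lay above 0, 6 were called higher and none lower, with a median of 0.37. Over all genes, 51.3% lay above 0, 0.462% were called higher and the median was 0.01. The list was chosen with earlier results of these data known, so the contrast is a description and no test. The 6 called genes were Serpina3n, Lcn2, Gfap, Osmr, Timp1 and Cp. Of these, Lcn2, Osmr, Timp1 and Cp are counted in other lists as well. Gfap, the intermediate filament that marks reactive Müller glia and astrocytes, was at 18.3, 15.5, 93.0 and 36.8 FPKM. Its 7-day value remained above the control and its 3 h value did not. Cp, ceruloplasmin, a copper ferroxidase, was at 39.1, 42.8, 100.3 and 46.7 FPKM. The next genes below the threshold were S1pr3, a sphingosine phosphate receptor (7.17, 6.196, 13.03 and 8.195 FPKM), the protease inhibitor A2m (83.0, 60.7, 139 and 75.4 FPKM) and the adhesion receptor Cd44 (22.6, 23.1, 37.7 and 28.2 FPKM). Each of these 3 was also highest at 24 h. Vim, the other main intermediate filament of Müller glia, went from 326 to 457 FPKM, a log2 change of 0.49, less than that of Gfap (2.28). The genes Tnc (4.70 to 4.68 FPKM) and Tm4sf1 (11.3 to 8.73 FPKM) were the 2 below 0. For 18 of the 26 genes the 24 h value was the highest of the 4 samples. Of 25 housekeeping genes, 13 were highest and 2 lowest at 24 h, and the share over all genes was not counted.

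Genes of resting Müller glia split into both directions. Crym was the 1 called gene of 24, and 14 lay above 0 (median 0.11). Glul, glutamine synthetase, which recycles glutamate in these cells, was at 769, 849, 395 and 884 FPKM. Its log2 change of -0.96 was just short of the threshold, and the other 3 samples were all above 750 FPKM. Rlbp1, the retinaldehyde carrier (215, 196, 152 and 219 FPKM), and Abca8a (27.3, 28.0, 19.0 and 31.8 FPKM) were also lowest at 24 h. Slc1a3, the glutamate transporter of the same cells (32.6, 30.9, 45.4 and 40.4 FPKM), and the transcription factor gene Sox2 (12.4, 11.9, 17.0 and 13.8 FPKM) were highest at 24 h. Aqp4 (23.7 to 21.8 FPKM), Kcnj10 (3.11 to 3.87 FPKM) and Car2 (141 to 135 FPKM), a water channel, a potassium channel and a carbonic anhydrase, differed less. Hes5, a Notch target found in glia, was called lower at 8.49, 5.71, 3.40 and 5.29 FPKM. Aldh1l1, a folate enzyme used as an astrocyte marker, was called higher at 6.38, 7.46, 18.2 and 8.10 FPKM, and Pdpn, podoplanin, at 44.4, 44.4, 97.3 and 53.2 FPKM.

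Secreted factors that act on photoreceptors differed one by one. Edn2, an endothelin released by injured photoreceptors, was at 0.761, 0.688, 10.01 and 6.17 FPKM, so both late samples were well above the control and 3 h. Its receptor Ednrb, found on Müller glia, was at 47.7, 41.0, 44.2 and 45.0 FPKM, and Ednra at 3.12, 2.497, 2.74 and 3.59 FPKM. The list of 7 endothelin genes had a median of -0.05, which was 0.10 with a minimum of 5 FPKM. Fgf2, a survival factor for photoreceptors, was at 4.197, 4.75, 8.27 and 6.70 FPKM, highest at 24 h and not called. Btc, betacellulin, a ligand of the epidermal growth factor receptor, was called at 5.05, 4.35, 14.8 and 6.32 FPKM. Ndp, norrin, a Müller glia ligand for retinal vessels, went from 1.998 to 6.47 FPKM and was called too. The 19 survival factors as a list had a median of -0.11, with 8 above 0. Igf1 (11.2 to 9.06 FPKM), Vegfa (35.3 to 28.9 FPKM) and Igf2 (19.4 to 12.03 FPKM) lay below their control level.

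Rod phototransduction genes were lower as a group without passing the threshold one by one. All 9 genes kept lay below 0, with a median of -0.69 and a range from -0.79 to -0.52, and none was called. In all 9 the 24 h value was the lowest of the 4 samples. Gnat1, the rod transducin alpha subunit, was at 2679, 2312, 1581 and 1787 FPKM, and Gnb1, its beta subunit, at 1137, 884, 657 and 828 FPKM. The phosphodiesterase subunits Pde6a, Pde6b and Pde6g were at 0.617, 0.627 and 0.611 of their control level, and the channel gene Cnga1 was at 0.636. The summed FPKM of the 9 genes was 11503, 9549, 6886 and 7587 FPKM. Over the same samples the summed FPKM was 552, 503, 495 and 597 FPKM for the bipolar cell list and 494, 452, 446 and 472 FPKM for the amacrine, horizontal and ganglion cell list.

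Genes that end the photoresponse lay below 0 in 10 of 11 cases, with a median of -0.41. Pdc, phosducin, which binds the transducin beta and gamma subunits, was the called gene at 1046, 802, 516 and 762 FPKM. Rgs9bp, the anchor of the transducin GTPase complex, was at 90.6, 97.6, 57.3 and 59.6 FPKM and Rcvrn, recoverin, at 510.4, 367, 339 and 397 FPKM. Sag, rod arrestin, was the 1 gene above 0, at 1200.2, 1558, 1329.8 and 1134 FPKM. Its 3 h value was the highest.

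Disc and outer segment genes had a median of -0.51, and 9 of 12 lay below 0. Prph2 (1243, 1034, 758 and 779 FPKM) and Rom1 (961, 778, 621 and 643 FPKM), the rim proteins of the disc, and Fscn2 (49.6, 39.9, 29.0 and 36.7 FPKM), an actin bundling protein, were lowest at 24 h. Impg2, a proteoglycan of the matrix around outer segments, went the other way and was called higher at 46.5, 45.0, 115 and 35.7 FPKM. At 24 h its paralogue Impg1 was near its control level, and its 7-day value was the lowest (32.2, 29.5, 33.7 and 21.5 FPKM). Rbp3, which carries retinoids through the same matrix, was at 351, 374, 400.1 and 237 FPKM, with its lowest value at 7 days.

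**Figure D4:**
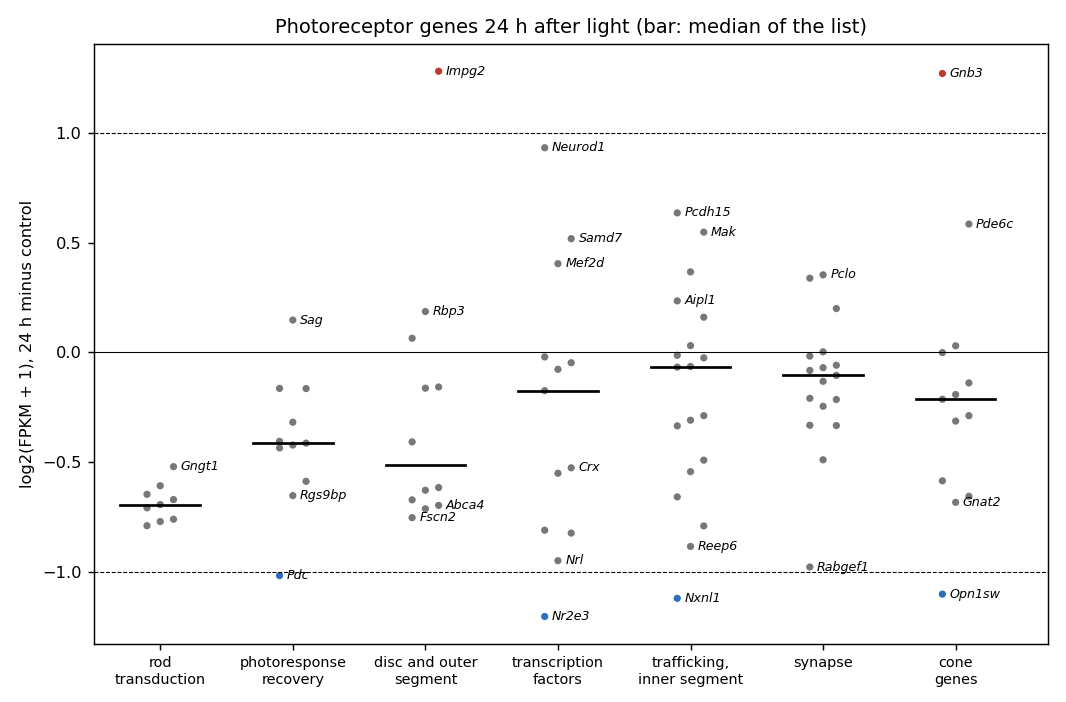
Difference in log2(FPKM + 1) between 24 h and the control for the members of 7 photoreceptor lists, with 1 point for each gene, a bar at each list's median and dashed lines at 1 and -1. All 9 rod transduction genes lie between -0.79 and -0.52, while Impg2 and Gnb3 lie above 1.

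Photoreceptor transcription factors spread widely. Nr2e3, which represses cone genes in rods, was called lower at 168, 107, 72.3 and 105 FPKM. Nrl, the factor that sets rod fate, was at 588, 567, 304 and 380.2 FPKM, a log2 change of -0.95. Mef2c (29.8, 25.5, 16.4 and 22.6 FPKM), Esrrb (72.7, 59.3, 41.0 and 49.8 FPKM) and Crx (236, 236, 164 and 172 FPKM) were lowest at 24 h too. Neurod1, a basic helix-loop-helix factor of photoreceptors, was higher at 84.3, 104, 162 and 72.3 FPKM, close to the threshold with a log2 change of 0.93. Samd7 (17.0, 17.9, 24.8 and 15.5 FPKM), a repressor in rods, and Mef2d (32.3, 36.4, 43.1 and 29.0 FPKM) were also highest at 24 h. Otx2, upstream of Crx, was at 55.5, 52.8, 52.6 and 54.6 FPKM. In all, 3 of 13 lay above 0, and the median was -0.17, or -0.53 without genes that belong to more than 1 list.

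Trafficking and inner segment genes had a median near 0 (-0.07, 19 genes). Nxnl1, which encodes rod-derived cone viability factor, was called lower at 92.5, 63.0, 42.0 and 59.3 FPKM. Reep6 (187, 125, 101 and 132 FPKM), Kcnv2 (81.2, 72.6, 46.5 and 53.04 FPKM) and Rdh12 (106, 106, 66.5 and 71.0 FPKM) were lowest at 24 h. Rdh12 is another retinol dehydrogenase of photoreceptors. Mak, a kinase of the connecting cilium (24.1, 26.9, 35.7 and 18.6 FPKM), Aipl1, a chaperone for the rod phosphodiesterase (245, 231, 288 and 179.6 FPKM), and Pcdh15 (13.1, 19.99, 20.9 and 15.7 FPKM) had their highest value at 24 h. In the synapse list (median -0.10, 17 genes) none was called. Rabgef1, a regulator of endocytosis, came nearest at 84.1, 84.2, 42.2 and 61.3 FPKM, and the ribbon gene Ctbp2 was at 56.6, 54.8, 65.2 and 52.8 FPKM.

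Cone genes had 1 called gene in each direction among 13, with a median of -0.21. Opn1sw, the short-wave cone pigment, was at 130.3, 117, 60.2 and 115 FPKM, with the other 3 samples close together. Opn1mw (34.6, 48.4, 21.6 and 37.2 FPKM) and Gnat2, cone transducin (42.1, 41.1, 25.8 and 42.3 FPKM), were lowest at 24 h. Gnb3, the beta subunit of cone transducin, which ON bipolar cells also express, was called higher at 79.5, 70.5, 193 and 110.3 FPKM. Pde6c, the cone phosphodiesterase, was at 16.9, 17.9, 25.8 and 21.4 FPKM, also highest at 24 h. Arr3, cone arrestin, was high at 3 h and 7 days and not at 24 h (41.5, 82.1, 36.2 and 77.3 FPKM).

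Crx and Otx2 bind GGATTA and its reverse complement TAATCC, so the same promoter windows were searched for these letters. GGATTA on either strand was found in 23 of the 69 photoreceptor list genes that had a window (33.3%). Its share was 7.21% of all windows and 6.49% of those of genes kept in the comparison. It was present in genes on both sides of 0. The stretches of Abca4 and Rabgef1, which were lower at 24 h, and of Mak and Samd7, which were higher, are shown to compare them, with the motif in capitals. They lie at chr3:122044382-122044427 on the plus strand for Abca4, chr5:130187135-130187179 on the plus strand for Rabgef1, chr13:41070658-41070703 on the minus strand for Mak and chr3:30746134-30746179 on the plus strand for Samd7.
Abca4: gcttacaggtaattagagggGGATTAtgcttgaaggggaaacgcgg
Rabgef1: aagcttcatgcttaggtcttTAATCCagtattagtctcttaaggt
Mak: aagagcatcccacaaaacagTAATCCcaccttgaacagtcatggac
Samd7: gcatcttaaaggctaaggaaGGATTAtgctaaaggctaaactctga

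Other retinal neurons showed no called gene apart from a neuropeptide. The median was -0.19 over 17 bipolar cell genes and -0.11 over 20 genes of amacrine, horizontal and ganglion cells. Grm6, the glutamate receptor of ON bipolar cells, was at 10.7, 7.47, 6.77 and 10.8 FPKM, low at 3 h and 24 h alike. Trpm1, its channel, was at 96.7 FPKM in the control and 88.4 at 24 h. Calb1, a calcium-binding protein of horizontal cells, was lowest at 24 h (16.2, 12.5, 9.42 and 12.4 FPKM), while Thy1 (39.6, 37.2, 37.7 and 40.4 FPKM) and Gad1 (36.0, 34.0, 33.5 and 32.4 FPKM) differed little. Of 12 neuropeptide genes, Npvf was called lower, and Vip (4.43, 6.46, 8.48 and 4.52 FPKM), Tac1 (7.5, 13.4, 12.3 and 7.68 FPKM) and Scg2 (67.8, 88.9, 92.2 and 71.2 FPKM) lay above their control level at 3 h and 24 h. Npy was low at 3 h and not at 24 h (56.4, 25.1, 52.7 and 61.1 FPKM).

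In the pigment epithelium and visual cycle list, no gene of 16 was called and the median was -0.01. Rpe65, the isomerase that regenerates 11-cis-retinol, was lowest at 24 h (123, 130.1, 80.8 and 147 FPKM), as was Rrh, peropsin (37.0, 24.5, 23.9 and 37.1 FPKM). Melanin and melanosome genes lay below 0 in 12 of 14 cases (median -0.14), with Pmel at 310.0, 279.7, 233 and 298 FPKM.

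AP-1 genes were among the transcription factors above control. Of 13 AP-1 and related genes, 12 lay above 0 and Atf3, Junb and Fosb were called (median 0.43). Atf3, a stress-induced factor of injured neurons, was at 2.59, 7.70, 15.4 and 3.31 FPKM and Fosb at 0.484, 1.51, 2.08 and 0.608 FPKM. Fos (14.2, 47.0, 24.9 and 10.05 FPKM) and Jun (21.9, 51.0, 36.2 and 20.8 FPKM) were highest at 3 h and were still above the control at 24 h. Egr1 behaved like Fos (7.90, 30.8, 15.9 and 5.65 FPKM), and none of the 23 EGR, NR4A and other immediate early genes was called. All 6 C/EBP genes lay above 0 (median 0.39), with Cebpb at 9.36, 21.3, 15.4 and 12.2 FPKM. The NF-kappaB list had a median of 0.18 over 16 genes, and its member Tnfaip3, which encodes the feedback inhibitor A20, was called lower at 45.6, 42.5, 21.4 and 29.7 FPKM. Relb (3.34, 3.84, 5.39 and 3.75 FPKM) and Vcam1 (6.81, 7.82, 10.95 and 9.55 FPKM) lay above the control.

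Hormone-linked genes differed one by one. Of 18 glucocorticoid-induced genes, Lcn2 was called higher and Pdk4 lower (median 0.09). Pdk4, a kinase that inhibits pyruvate dehydrogenase, was at 6.45, 10.5, 1.99 and 2.88 FPKM, highest at 3 h and lowest at 24 h. Tsc22d3 was at 29.0, 123, 44.5 and 39.1 FPKM, so its high value at 3 h was no longer seen at 24 h. Among 13 genes of thyroid hormone handling, Crym was the 1 called gene and the median was 0.13. The clock list had a median of 0.25 over 20 genes. Its member Dbp, a clock output factor, was called at 40.6, 58.2, 86.2 and 82.4 FPKM, and Per2 was just below the threshold at 2.399, 7.49, 5.74 and 4.84 FPKM. Arntl, which peaks opposite to these genes in the daily cycle, was at 25.5, 26.0, 18.3 and 16.3 FPKM. The sources used here do not state the time of day of collection, and its part in these values was not tested.

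Stress lists lay slightly above 0. Their medians were 0.16 for cell death and p53 targets, 0.10 for chaperones of the heat shock response, 0.15 for Nrf2-dependent antioxidant genes, 0.10 for the integrated stress and unfolded protein response, 0.17 for metallothioneins and zinc transport and 0.15 for iron handling. Beside these, 25 housekeeping genes had a median of 0.10. In the cell death list, 26 of 34 genes lay above 0 and Tnfrsf12a and Gadd45b were called. Gadd45b, a growth arrest gene, was at 10.1, 16.05, 29.3 and 14.9 FPKM, highest at 24 h. Bax (23.3, 27.2, 32.6 and 27.1 FPKM), Fas (6.15, 8.27, 8.95 and 7.85 FPKM) and Bbc3 (1.55, 1.74, 2.46 and 1.73 FPKM), which promote cell death, were highest at 24 h without being called. The metallothionein genes Mt1 (325, 794, 586 and 428 FPKM) and Mt2 (161, 375, 304 and 207 FPKM) were highest at 3 h. Trf, transferrin, was at 389.7, 429, 692 and 462 FPKM, and of the iron genes Lcn2 and Cp were called. Hmox1, heme oxygenase, was at 95.7, 88.0, 116 and 88.8 FPKM, and Nqo1, another Nrf2 target, was lowest at 24 h (18.7, 17.4, 12.99 and 20.2 FPKM).

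Among immune genes, Ccl12, Ccl2, Cfi, Irf9 and S100a9 were called higher and Hdc lower. Homeostatic microglia genes had a median of -0.16 and activated microglia and macrophage genes of 0.16, with none of 15 and 28 called. Cd68, a lysosomal protein of phagocytes, was at 4.08, 5.51, 6.48 and 12.1 FPKM, higher at 7 days than at 24 h. P2ry12, a receptor of resting microglia, was at 1.57, 1.59, 0.864 and 2.36 FPKM. All 4 Y-linked markers (Ddx3y, Kdm5d, Uty, Eif2s3y) were above 1 FPKM in the 7-day sample alone (Ddx3y, 6.59 FPKM) and at most at 0.0137 FPKM in the others, so sex and time cannot be told apart there. Chemokine and cytokine genes lay above 0 in 20 of 22 cases (median 0.23). Ccl12 (2.29, 0.820, 7.29 and 2.09 FPKM) and Ccl2 (0.439, 0.818, 2.35 and 1.23 FPKM), which attract monocytes, were called, and Cxcl10 came close (0.642, 0.740, 2.197 and 0.801 FPKM). Il33, an alarmin that Müller glia hold, was at 21.6, 26.7, 33.8 and 22.0 FPKM. Cfi, complement factor I, was the called gene of 18 complement genes, at 0.398, 0.304, 2.86 and 1.22 FPKM, and C4b was at 10.9, 10.04, 17.3 and 13.1 FPKM.

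Of 39 interferon-stimulated and MHC class I genes, 30 lay above 0 and 21 were highest at 24 h, with a median of 0.18. Of 25 housekeeping genes, 19 lay above 0 and 13 were highest at 24 h. In the list, 2 genes were called higher, Irf9 among them. Irf8 (1.66, 1.60, 3.28 and 2.81 FPKM) and Irf7 (20.3, 23.6, 27.7 and 17.1 FPKM) lay above control, and Ifi44 (10.8, 8.85, 7.16 and 7.82 FPKM) below it. All 6 MHC class II genes lay above 0 (median 0.22). S100a9, a neutrophil calprotectin subunit, was called at 1.22, 2.41, 3.54 and 4.80 FPKM, and its partner S100a8 was at 1.14, 0.802, 2.13 and 3.49 FPKM. The summed FPKM of the 7 neutrophil genes kept was 11.6, 14.1, 14.4 and 18.2 FPKM. Hdc, histidine decarboxylase of mast cells, was called lower at 2.41, 1.71, 0.613 and 1.995 FPKM, and all 6 mast cell genes lay below 0.

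Most genes of the collagen list and of the elastic fibre list were lower at 24 h, with the control the highest sample for most of them. Of 28 collagen genes, 26 lay below 0 and 3 were called (median -0.53). Col3a1 was at 166, 76.2, 60.8 and 98.9 FPKM, Col1a1 at 468, 224, 231 and 358 FPKM and Col5a1 at 26.1, 12.5, 12.3 and 16.2 FPKM. These 3 fibrillar collagen genes were as low at 3 h as at 24 h, or nearly so, and 7 days lay between. Among 24 elastic fibre and crosslinking genes, Eln, Fbn1 and Lox were called (median -0.40). Fbn1, the microfibril protein fibrillin-1, was at 22.7, 12.1, 8.97 and 14.2 FPKM and Lox, which crosslinks collagen and elastin, at 12.98, 7.40, 5.84 and 9.80 FPKM. Loxl4 of the same family was above the control at 3 h and 24 h (1.91, 3.90, 3.84 and 2.02 FPKM). The summed collagen FPKM was 1889, 1108, 1118 and 1493 FPKM. The summed FPKM of skeletal muscle genes, another tissue on the outside of the eye, was 3412, 3702, 2252 and 3002 FPKM, thus low at 24 h and not at 3 h. The part of tissue composition in the matrix values was not tested. Matrix proteases and inhibitors had a median of -0.16, with Mmp14 at 34.6, 17.7, 21.0 and 26.7 FPKM and Timp1 the called exception. Small proteoglycan genes had a median of -0.19 and TGF-beta signalling genes and targets of -0.07, with none called. At 7 days the medians of these lists were above the control, at 0.06 and 0.08. Vascular endothelium and pericyte genes lay below 0 in 23 of 26 cases (median -0.24), with Cldn5 at 27.6, 14.0, 18.0 and 20.8 FPKM and Kdr, a receptor for vascular endothelial growth factor, above control at 21.7, 12.9, 31.0 and 29.0 FPKM.

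Skeletal muscle genes were the lowest of the lists from tissues around the eye. Of 33 genes, 32 had their lowest value at 24 h, and the median was -0.66. Myh2 (36.0, 25.5, 15.3 and 24.3 FPKM) and Myh3 (59.7, 41.8, 26.6 and 41.3 FPKM), myosin heavy chains, were called. Csrp3, a muscle LIM protein (16.5, 14.4, 7.57 and 9.74 FPKM), Myh15, a slow-type myosin (37.9, 29.5, 17.7 and 31.8 FPKM), and Myl10 (7.77, 3.90, 3.00 and 3.65 FPKM) were called too, outside the list. The part of the amount of muscle in these values was not tested. Lens genes had a median of 0.12 and cornea and conjunctiva genes of 0.07, with none called in either. In the list of corneal endothelium and trabecular meshwork, Slc4a11, a transporter of the corneal endothelium, was called lower at 15.6, 4.12, 5.79 and 8.66 FPKM. Angptl7, a secreted protein of the trabecular meshwork, was called higher, and Chi3l1 was at 90.5, 95.1, 174 and 109 FPKM. Glycam1, a mucin-like glycoprotein, was called at 2.17, 2.09, 14.99 and 4.07 FPKM. The goblet cell mucin Muc5ac was at 0.292, 0.613, 0.20 and 0.167 FPKM, lower at 24 h than in the control. Adipocyte genes had a median of 0.20, with Fabp4 at 12.2, 37.5, 20.3 and 12.99 FPKM. The medians of Schwann cell and myelin genes (-0.23), ciliary body and iris genes (-0.08) and erythroid genes (-0.37) were below 0, with no gene called. Of the lacrimal gland and goblet cell list, 3 genes were kept, with a median of 0.45 that was 0 without the filter on low values.

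Genes of basic cell functions differed by group. Respiratory chain complex I (0.03, 42 genes), ATP synthase (0.03, 17 genes) and cytochrome oxidase with complex III (0.04, 25 genes) had medians close to that of all genes. Cytosolic ribosomal protein genes lay above 0 in 78 of 83 cases, with a median of 0.26. At 3 h their median was 0.27 and at 7 days 0.21, measured from the control that 24 h shares. Proteasome subunits lay above 0 in 35 of 38 cases (median 0.11), and 27 were highest at 24 h. Of 25 housekeeping genes, 19 lay above 0 (median 0.10) and 13 were highest at 24 h. The proteasome genes Psmb2 and Psmb4 are also housekeeping genes here, so the lists overlap. Genes of glucose use lay below 0 in 25 of 32 cases (median -0.17), Pdk4 being the called gene, with Hk2 (57.5, 54.5, 36.3 and 37.4 FPKM) below and Hk1 (108, 108, 163 and 95.9 FPKM) above control. Both encode hexokinases, and Hk1 was highest at 24 h. The median of 28 cell cycle genes was 0.01, and -0.06 after the samples were scaled to the same sum without lens, muscle, blood, cornea and small RNA genes. Spc25 was called lower, at 72.4, 61.9, 23.3 and 74.4 FPKM, and was near its control level at 7 days. Spc24 was far lower in every sample (1.38, 1.19, 1.10 and 1.10 FPKM). Several genes of mitosis with low values were below the control in all light samples. Among them were Top2a (2.84, 1.95, 1.48 and 1.99 FPKM), Cdk1 (1.91, 1.01, 0.914 and 1.59 FPKM), Ccnb1 (2.22, 1.18, 1.14 and 1.52 FPKM), Cdc20 (3.41, 2.69, 1.81 and 2.79 FPKM) and Mki67 (1.66, 1.16, 0.851 and 1.20 FPKM). Mcm2 (3.47, 3.86, 5.14 and 3.83 FPKM) and Pcna (40.9, 46.8, 50.7 and 40.2 FPKM), which act in DNA replication, and Ccnd1 (26.9, 31.2, 38.01 and 33.5 FPKM), a cyclin of the first growth phase, were highest at 24 h. Genes of cholesterol synthesis and uptake (0.07) and of the lysosome (0.05) had medians near 0 that changed sign under the same scaling, to -0.00 and -0.03.

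**Figure D5:**
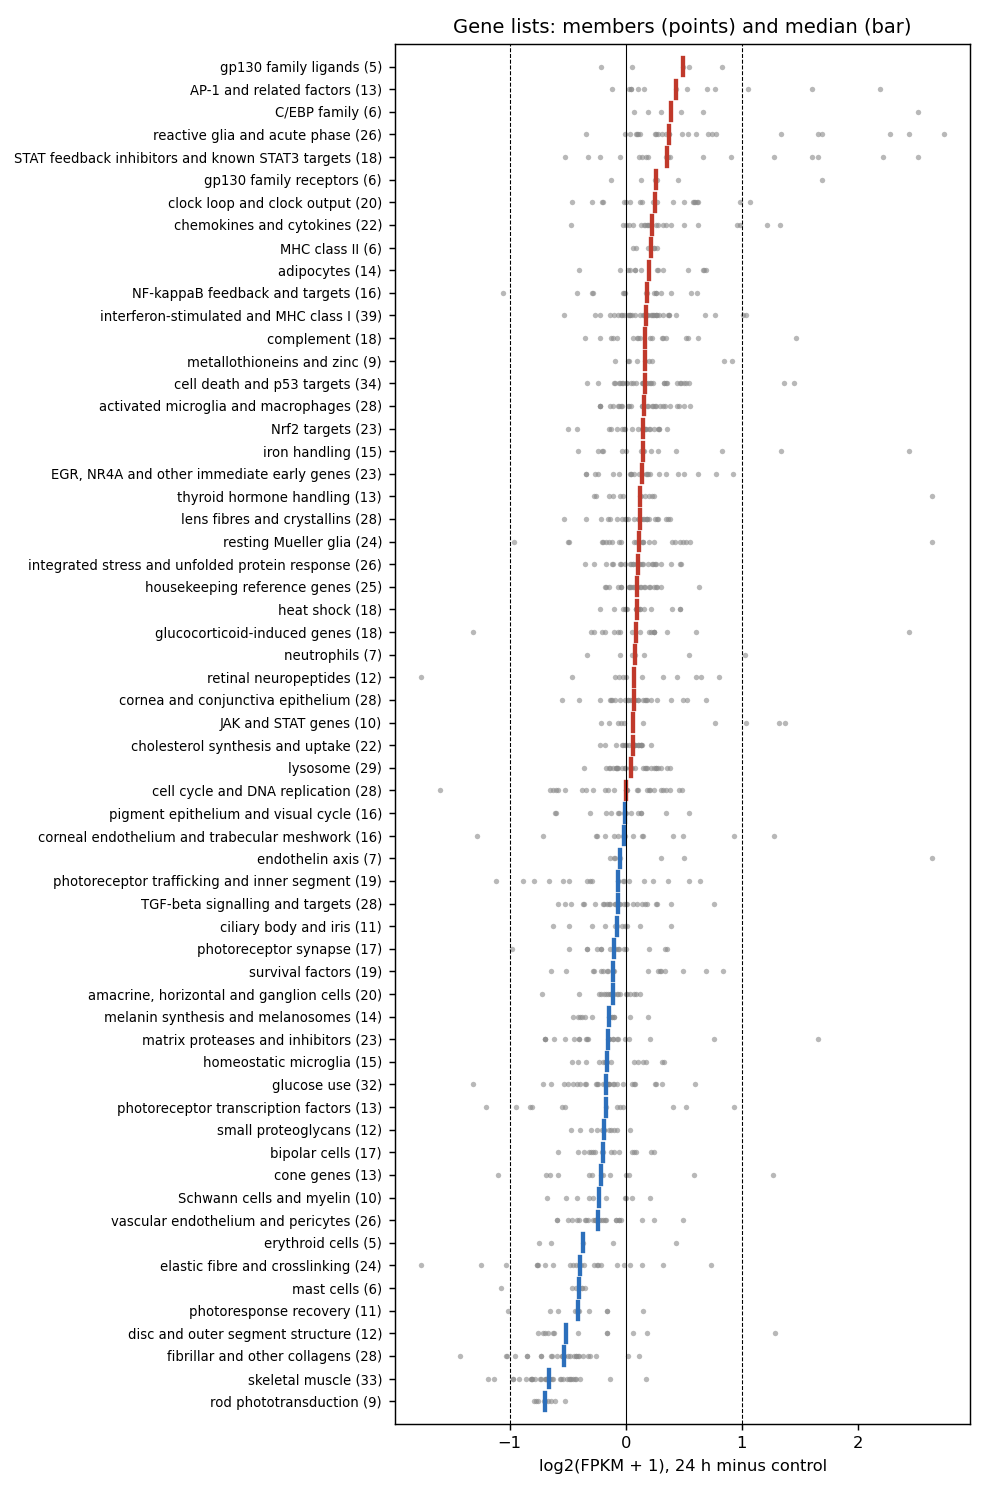
Difference in log2(FPKM + 1) between 24 h and the control for the members (grey points) and median (red or blue bar) of each list with at least 5 genes kept, without the lists added after the data were seen and the families of ribosome, respiratory chain, ATP synthase and proteasome, sorted by median, with the number of genes in brackets and dashed lines at 1 and -1. Of the lists shown, ligands of gp130 and AP-1 genes stand at the top and rod phototransduction and skeletal muscle genes at the bottom.

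The other named genes past the threshold belonged to none of the lists. Lrrc2 was at 2.95, 4.25, 12.2 and 4.70 FPKM, Klhl29, of the kelch-like family, at 3.72, 4.24, 14.4 and 3.89 FPKM and Sec22c, of a vesicle transport family, at 3.85, 4.12, 14.3 and 4.17 FPKM. In all 3 the 24 h value was at least 1 log2 unit above every other sample. Olfm2, an olfactomedin, was at 3.51, 5.08, 10.9 and 6.04 FPKM and Dcps, an enzyme that degrades mRNA caps, at 20.5, 22.6, 52.8 and 25.8 FPKM. On the lower side, Ccdc24 was at 49.6, 45.2, 17.7 and 35.3 FPKM and Fam3c, a secreted cytokine-like protein, at 96.8, 86.0, 44.4 and 68.7 FPKM. Both were lowest at 24 h. The histone H4 gene Hist1h4j was at 0, 15.3, 8.95 and 5.07 FPKM, so it is listed at 0 in the control, and its calls are uncertain because histone H4 genes are nearly identical.

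Further called genes, like Pdpn, Ndp, Myl10 and Snx31 above, were outside the rule for naming and were chosen after their values were seen. Sox30, a Sox family transcription factor gene, was at 2.48, 1.75, 11.1 and 3.05 FPKM and Rfx2, a ciliary gene regulator, at 2.37, 2.48, 7.78 and 2.75 FPKM. Both were highest at 24 h by at least 1 log2 unit. Agtpbp1, a carboxypeptidase that trims glutamates from tubulin, was at 53.2, 62.8, 125 and 71.4 FPKM, and Plin2, a lipid droplet coat protein, at 12.9, 19.0, 27.4 and 16.5 FPKM. Lmo1 was at 18.8, 20.4, 39.5 and 19.6 FPKM and Cdh13, a cadherin, at 4.58, 4.13, 11.49 and 5.35 FPKM. Ch25h, which makes 25-hydroxycholesterol, went from 1.93 to 6.25 FPKM. Adh6a, an alcohol dehydrogenase, was at 0.325, 3.50, 4.47 and 2.21 FPKM, Slc26a7, an anion transporter, at 13.2, 16.8, 30.02 and 19.6 FPKM and Inmt, a methyltransferase, at 6.32, 11.7, 15.7 and 9.49 FPKM. Lin7b was at 2.99, 2.59, 9.20 and 4.07 FPKM, Bst1 at 2.42, 3.15, 7.33 and 3.10 FPKM and Tspan4, a tetraspanin, at 17.1, 27.6, 38.9 and 29.8 FPKM. On the lower side, Shisa3 was at 4.57, 1.86, 1.72 and 2.63 FPKM. The pseudogene entries Rplp2-ps1 (2.48, 6.77, 6.25 and 4.22 FPKM) and Gpr137b-ps (1.88, 7.601, 6.48 and 4.04 FPKM) are uncertain because they resemble their parent genes. Xkrx was at 3.99, 0.264, 0.411 and 0.244 FPKM, so only the control had more than 1 FPKM. Just inside the threshold were Irf9 (1.01) and S100a9 (1.03) among higher genes and Dpf3 (-1.02) and Pdc (-1.02) among lower ones. Just outside were Per2 (0.99), Cxcl5 (0.99), Rabgef1 (-0.98) and Myh7 (-0.97).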

How the data were processed

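Whole-eye RNA of 4 conditions, 1 deposited value per gene and condition, was used. The values are FPKM made by the authors. The submitters' processing notes name the mm9 build and the tools bcl2fastq 1.8.3, TopHat2 (version given as 2) and Cuffdiff 2.2.1, and the series design adds Cufflinks. Annotation, library scaling and the handling of multiply mapped fragments: not given in the sources used here. From the table, log2(FPKM + 1) at 24 h minus control was computed with Python 3.11.15, numpy 2.4.6 and pandas 2.3.3 for genes with a mean of at least 1 FPKM over the 4 samples, with small RNA genes (Snora, Snord, Scarna, Mir, Rnu) set aside. The calculation that makes the calls was tested on simulated data with known changes, which checks the calculation and not the calls. With 1 value per condition no test was run, and a log2 difference of 1 made a call. Because FPKM values share a total, a change in abundant transcripts moves all others: the sums were 626973 in the control and 660426 at 24 h.

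Depth was read from the smallest values of olfactory receptor genes. Named genes were the top 25 by increase and the top 20 by decrease among called genes with a mean of at least 5 FPKM, unnamed models passed over, along with Abca4, Rdh8 and list members within the account of their list. The 62 lists held 1253 entries (1188 distinct genes, 1155 found, 1025 kept). Another 4 lists were added after the data were seen. The members and lists were chosen with earlier results of these data known. Values of 2 genes are not reported here. Promoter windows come from RefSeq, build GRCm38.p6, and 99.0% of the listed symbols matched the reference table.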

Additional observations from a re-analysis of the deposited data

Results flagged for a closer look

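The gene model 1700027L20Rik had values of 3.44, 1.73, 53.5 and 0.466 FPKM (control, 3 h, 24 h, 7 days). Its log2 difference from the control was 3.62 at 24 h and -1.60 at 7 days, so the direction differed between the times. The gene model Gm4792 was at 17.3, 38.6, 4.31 and 3.80 FPKM, with a log2 difference of 1.12 at 3 h and -1.78 at 24 h. Each time is 1 sample, these differences between times were not tested, and both models are outside the rule for naming.

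Among the 120 small RNA genes set aside, 41 were at least 1 log2 unit higher at 24 h than in the control and 19 lower, with a median of 0.10. Of the 120, 62 were listed at 0 in the control or at 24 h.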

How the results depend on the processing

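No paired analysis was possible because each condition has 1 value per gene, and for the same reason no replicate could be left out. A pseudocount of 0.1 in place of 1 called 102 genes higher and 73 lower, against 65 and 32, since it widens the log2 differences of low genes. Small RNA genes included gave 106 and 51, and a threshold of 1.5-fold gave 235 and 260. The counts stayed within 1.5 times under no filter, a minimum of 5 FPKM, a minimum over the control and 24 h alone, removal of genes listed at 0, the median ratio, the same sum without lens, muscle, blood, cornea and small RNA genes, and protein-coding genes only. The 45 named genes kept their direction, and 12 moved by over 0.2 in log2, all with the pseudocount of 0.1. List medians reached or crossed 0 in 7 cases: under the scaling without lens and other tissues for cell cycle (-0.06), cholesterol (-0.00) and lysosome (-0.03), without genes of several lists for lysosome (-0.01) and JAK and STAT genes (-0.03), with a minimum of 5 FPKM for endothelin (0.10) and without filter for lacrimal genes (0). Depth limits genes near 1 FPKM, where the estimated counting error alone is 21.2% in the control, if the assumption behind that estimate holds.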

Other observations

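The lists below were drawn up after the data were seen, and their values are descriptions. Of the milk protein list, 3 genes were kept. Lalba, alpha-lactalbumin, was at 0.301, 0.247, 5.38 and 3.38 FPKM and Glycam1 at 2.17, 2.09, 14.99 and 4.07 FPKM. Both were highest at 24 h. The third, Xdh, xanthine dehydrogenase, was at 6.41, 11.04, 6.41 and 6.50 FPKM, highest at 3 h and at 24 h as in the control. Among genes under the filter, the casein gene Csn3 was at 0, 0, 0.218 and 0.0218 FPKM, and Csn1s1, Csn1s2a, Csn2 and Wap were listed at 0 in the control and at 24 h. Genes of injured and growing axons lay above 0 in 13 of 16 cases, with a median of 0.57. Prph, the neuronal filament peripherin, was at 1.03, 0.634, 4.15 and 1.04 FPKM, Gap43, a growth cone protein, at 10.2, 8.91, 18.1 and 9.93 FPKM, and Tubb2b, a tubulin of growing neurons, at 8.84, 7.18, 17.4 and 7.92 FPKM. In these 3 genes the other samples lay close together. The neurofilament genes Nefl (104, 96.4, 95.2 and 98.1 FPKM) and Nefh (10.001, 8.49, 9.16 and 9.06 FPKM) did not share that pattern. Both are outside this list.

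The aryl hydrocarbon receptor gene Ahr was at 9.26, 10.8, 20.8 and 9.05 FPKM and its repressor Ahrr at 3.21, 4.92, 7.26 and 3.19 FPKM, both highest at 24 h. Their list of 7 genes had a median of 0.26, with 5 above 0, 2 below and only Ahr called. Of the target genes, Aldh3a1 (1251 to 1637 FPKM) and Tiparp (9.51 to 11.6 FPKM) lay above control. Cyp1b1 was near its control level (5.84 to 6.16 FPKM) and Nqo1 was lower (18.7 to 12.99 FPKM). Cyp1a1 was under the filter (0.0249 to 0.0189 FPKM). Genes of the BBSome and of intraflagellar transport, which carry proteins along the cilium, had a median of -0.12 over 19 genes. Arl6, the GTPase that recruits the BBSome, was at 53.9, 61.5, 119 and 58.6 FPKM and Ift57 at 9.64, 10.9, 19.4 and 11.8 FPKM, and these 2 were the highest log2 changes of their list.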
